A study of Homo sapiens with 32 samples.

Results

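Transcription factors that mark the kidney lineage, namely PAX8, PAX2, HNF4A, LHX1, EMX2, WT1 and GATA3, were examined in N6-methyladenosine (m6A) peak lists of 2 kidney cell lines. A peak was assigned to a gene when it overlapped the RefSeq gene body on GRCh38 by at least 1 bp. The members are 7 of 20056 protein-coding genes, and 479 of the 474004 listed peaks fell in them. Of the 7, 6 had a peak in at least 1 library, and HNF4A had none in any of the 16 libraries. Among all protein-coding genes, 33.1% had no peak in any library.

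m6A was mapped by MeRIP-seq, in which fragmented RNA is pulled down with an m6A antibody and compared with Input RNA of the same sample. The 786-O line comes from a clear cell renal cell carcinoma (ccRCC), and RPTEC are hTERT-immortalized renal proximal tubule epithelial cells. Each cell line was represented by the parental WT line, the SETD2 knockout clones SETD2KO-1 and SETD2KO-2, and SETD2KO-1R, a clone derived from SETD2KO-1 that re-expresses a tagged SETD2 transgene, each with 2 IP libraries. SETD2 is the methyltransferase that trimethylates lysine 36 of histone H3. No treatment was given, and each SETD2 status is carried by a few clones, so clone and SETD2 status cannot be told apart beyond the rescue. All RPTEC libraries shared one growth medium and one experiment name in the file headers, and all 786-O libraries shared others. Cell line, medium and whatever the experiment name stands for therefore cannot be told apart.

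PAX8 and PAX2 are paired-box factors that act in the earliest nephric lineage, and PAX8 remains on in adult tubules and in ccRCC. LHX1 and EMX2 are homeodomain factors needed for the nephric duct and the ureteric bud epithelium. WT1 is a zinc finger factor of the nephron progenitor and the podocyte, GATA3 belongs to the nephric duct and collecting duct, and HNF4A drives the differentiated proximal tubule. m6A is placed on many mRNAs by the METTL3 and METTL14 complex, often near stop codons and in long exons. A peak in these lists needs a transcript and its methylation, so less RNA and less methylated RNA cannot be told apart, and the lack of a peak does not show that a gene is silent.

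The lists held 25710 to 39670 peaks in 786-O and 19249 to 31207 in RPTEC. They hold no read counts, so the depth of each library is unknown here, and a gene not listed may lie below the caller's threshold. The SETD2 gene itself had peaks in all 16 libraries, with 4 to 10 in 786-O SETD2KO, 7 to 10 in 786-O SETD2-expressing, 4 to 6 in RPTEC SETD2KO and 7 to 11 in RPTEC SETD2-expressing libraries. Peaks on its transcript do not test whether the knockout abolished the protein. Of 10 proximal tubule markers, 4 (LRP2, AQP1, SLC34A1 and SLC22A6) had no peak in any library, and 6 had a peak in at least 1 786-O library and 4 in at least 1 RPTEC library. SLC5A2 was called in 8 of 8 786-O and 0 of 8 RPTEC libraries and PDZK1 in 8 and 1, both with more peaks in 786-O (exact permutation test, adjusted p = 0.0083 each). ANPEP was called in 2 and 8, HAVCR1 in 7 and 1, and GGT1 in 8 and 8 (5.25 and 1.62 peaks on average). For peak number their adjusted p-values were 0.14, 0.081 and 0.079 by the exact permutation test. Of 8 ccRCC markers, CA9 had no peak in any library, 7 had a peak in at least 1 786-O library and 6 in at least 1 RPTEC library. None of the 6 distal tubule and collecting duct markers had a peak. Of 7 general renal epithelium markers 5 had a peak in 786-O and 6 in RPTEC, and KRT19 had more peaks in RPTEC (exact permutation test, adjusted p = 0.049). SYNPO, a podocyte marker, had more peaks in 786-O (exact permutation test, adjusted p = 0.022). Of 4 endothelial, 4 fibroblast and 4 immune markers, 0, 1 and 1 had a peak in 786-O and 1, 2 and 1 in RPTEC.

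PAX8 (gene ID 7849, chr2:113215997-113278921, minus strand, 62.9 kb) was called in all 16 libraries. In 786-O it had 13 and 16 peaks in WT, 13 and 12 in SETD2KO-1, 17 and 14 in SETD2KO-2, and 13 and 9 in SETD2KO-1R. In RPTEC it had 12 and 11 peaks in WT, 9 and 18 in SETD2KO-1, 13 and 7 in SETD2KO-2, and 17 and 17 in SETD2KO-1R. The ranges of the 2 cell lines overlapped, with means of 13.4 ± 2.45 (SD, n = 8) in 786-O and 13 ± 4.04 (SD, n = 8) in RPTEC. The replicates of RPTEC SETD2KO-1 differed by 9 peaks, which is more than the difference between the cell lines.

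PAX2 (gene ID 5076, chr10:100735396-100829944, plus strand, 94.5 kb) was also called in all 16 libraries and varied most. In 786-O it had 8 and 13 peaks in WT, 15 and 14 in SETD2KO-1, 10 and 4 in SETD2KO-2, and 12 and 7 in SETD2KO-1R. In RPTEC it had 19 and 9 peaks in WT, 4 and 17 in SETD2KO-1, 15 and 5 in SETD2KO-2, and 19 and 18 in SETD2KO-1R. The means were 10.4 ± 3.81 (SD, n = 8) in 786-O and 13.2 ± 6.30 (SD, n = 8) in RPTEC, with overlapping ranges. Its number was lower in the shorter lists: the 3 shortest RPTEC lists (19249 to 24605 peaks) held 4 to 9 PAX2 peaks, and the 5 longest (26270 to 31207 peaks) held 15 to 19. In 786-O the 3 shortest lists held 4 to 8 and the 5 longest 10 to 15. This split was chosen after the values were seen. With the 19249 highest peaks of every library, the same 3 RPTEC lists still held 4 to 8 PAX2 peaks and the other 5 held 11 to 15. The same 3 786-O lists held 2 to 6 and the other 5 held 5 to 11. In these lists PAX2 had 6.13 ± 2.70 peaks in 786-O and 9.75 ± 3.77 in RPTEC (SD, n = 8), a difference of 3.62 that did not pass (exact permutation test, adjusted p = 0.40). PAX8 had 10.2 ± 1.49 and 10.2 ± 1.75.

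**Figure D1:**
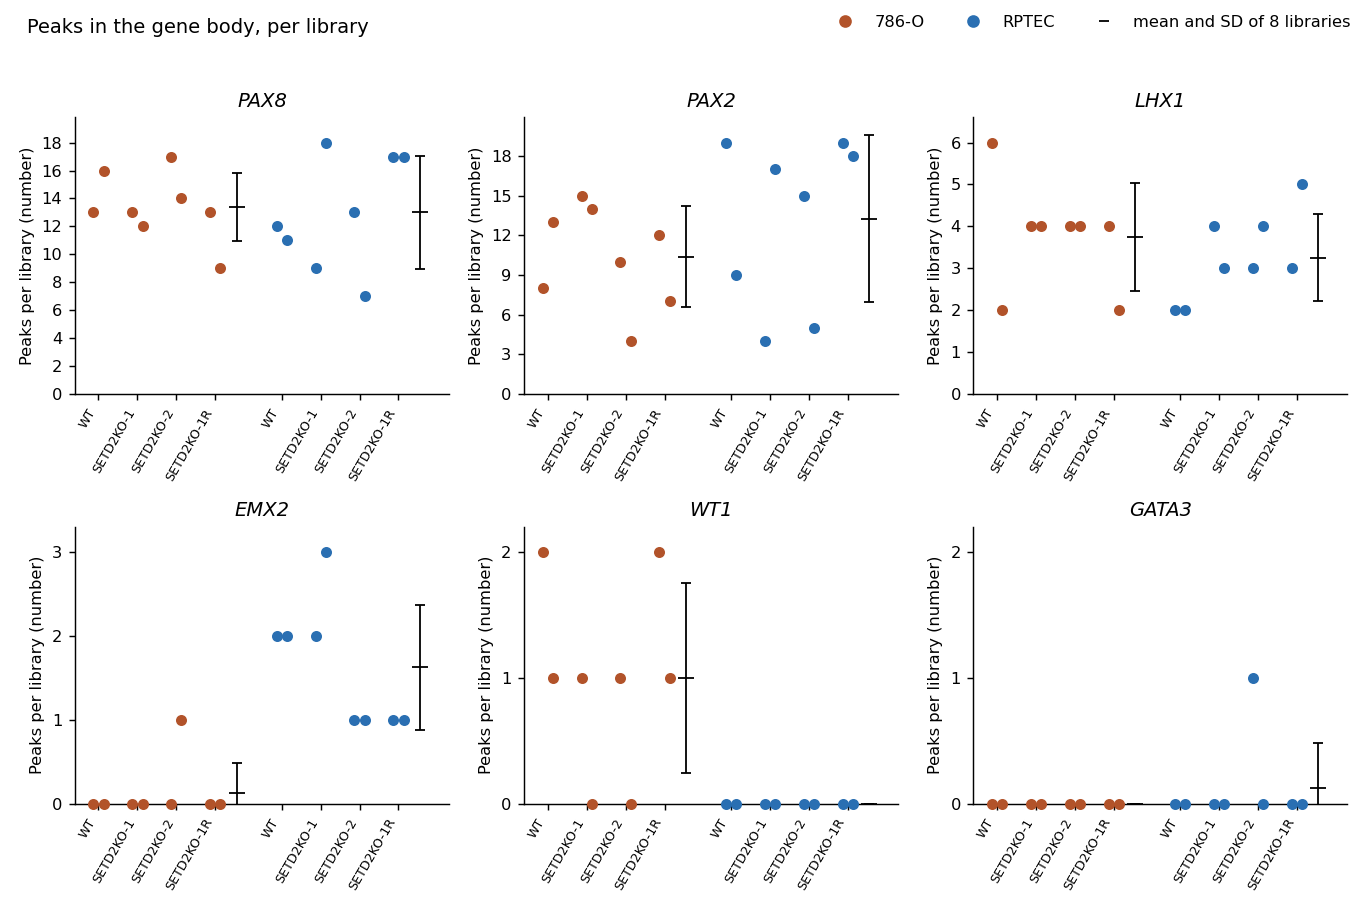
Number of peaks in the gene body (vertical axis) in each IP library, with both replicates of each of the 4 lines side by side (horizontal axis, orange for 786-O, blue for RPTEC) and bars for the mean and SD of the 8 libraries of a cell line. PAX8, PAX2 and LHX1 overlap between the cell lines, whereas EMX2 has 1 to 3 peaks in each RPTEC library and WT1 has none there.

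**Figure D2:**
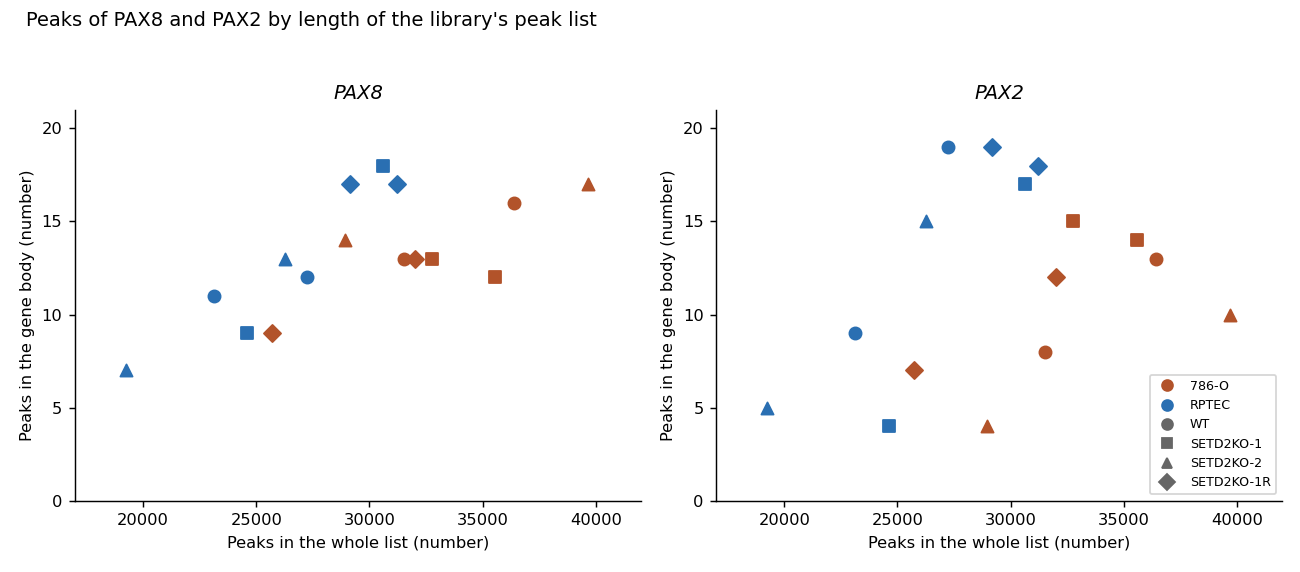
Peaks in PAX8 and PAX2 (vertical axis) against the number of peaks in the whole list (horizontal axis) for the 16 libraries, coloured by cell line and shaped by line. The RPTEC libraries with 4 to 9 PAX2 peaks are those with the 3 shortest lists.

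LHX1 (gene ID 3975, chr17:36936785-36944612, 7.83 kb) was called in all 16 libraries, so all of PAX8, PAX2 and LHX1 belonged to the 34.5% of genes with a peak that were called in every library. In 786-O it had 6 and 2 peaks in WT, 4 in each SETD2KO library, and 4 and 2 in SETD2KO-1R. In RPTEC it had 2 and 2 peaks in WT, 4 and 3 in SETD2KO-1, 3 and 4 in SETD2KO-2, and 3 and 5 in SETD2KO-1R. Per length of gene, LHX1 had the most peaks of the members, with 4.79 per 10 kb in 786-O and 4.15 in RPTEC. PAX8 had 2.13 and 2.07, PAX2 1.10 and 1.40, and EMX2 0.18 and 2.39.

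EMX2 (gene ID 2018, chr10:117542746-117549546, plus strand, 6.80 kb) was the member most often called in RPTEC and seldom in 786-O. In RPTEC it had 2 and 2 peaks in WT, 2 and 3 in SETD2KO-1, and 1 peak in each of the SETD2KO-2 and SETD2KO-1R libraries. In 786-O the only peak was in SETD2KO-2 replicate 2, and the other 7 libraries had none. The lowest RPTEC libraries and the highest 786-O library therefore met at 1 peak. WT1 (gene ID 7490, chr11:32387775-32435539, minus strand, 47.8 kb) went the other way. It had 2 and 1 peaks in 786-O WT, 1 and 0 in SETD2KO-1, 1 and 0 in SETD2KO-2, and 2 and 1 in SETD2KO-1R, and none in any RPTEC library. GATA3 (gene ID 2625, chr10:8045333-8075198, plus strand, 29.9 kb) had a single peak in RPTEC SETD2KO-2 replicate 1, and HNF4A (gene ID 3172, chr20:44355699-44434596, plus strand, 78.9 kb) had none.

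For the presence of a peak in RPTEC against 786-O, 0 of the 6 tested members passed, beside 1.12% of the 13420 genes tested, 0.693% with more calls in RPTEC and 0.425% with more in 786-O (Fisher's exact test, two-sided, Benjamini-Hochberg adjusted over all of them). EMX2 was called in 8 of 8 RPTEC and 1 of 8 786-O libraries (Fisher's exact p = 0.0014, adjusted p = 0.063), and WT1 in 0 of 8 and 6 of 8 (p = 0.0070, adjusted p = 0.18). At an unadjusted p under 0.05, 2 of 6 members and 7.44% of all genes tested passed. By Fisher's exact test the call of EMX2 passed after adjustment in the upper 50% of each list (adjusted p = 0.025), with the 19249 highest peaks of each list (adjusted p = 0.014) and without 786-O SETD2KO-2 replicate 2 (adjusted p = 0.013), where no 786-O library had an EMX2 peak. By the exact tests it did not pass with any of the other 15 libraries left out (adjusted p = 0.053 to 0.060) or under the other settings, where the adjusted p ranged from 0.064 to 0.092 and was 0.69 with whole lines as units.

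For the number of peaks, 1 of the 6 tested members passed, EMX2, beside 5.36% of genes, 1.92% with more peaks in RPTEC and 3.44% with more in 786-O. At an unadjusted p under 0.05, 2 of 6 members and 18.1% of all genes passed. EMX2 averaged 1.62 ± 0.744 peaks in RPTEC and 0.125 ± 0.354 in 786-O (SD, n = 8; difference 1.5, exact permutation test, two-sided, p = 7.8e-04, adjusted p = 0.025). With whole lines as units, 4 against 4, the adjusted p was 0.28, and the smallest p such a test allows is 0.029 before adjustment. WT1 averaged 1.00 ± 0.756 in 786-O and 0 in RPTEC (exact permutation p = 0.0070, adjusted p = 0.081), and passed without 786-O SETD2KO-1 replicate 2 (adjusted p = 0.032) or SETD2KO-2 replicate 2 (adjusted p = 0.029), both of which had no WT1 peak. The median difference, RPTEC minus 786-O, was -0.125 peaks over the 6 members and -0.25 over all genes tested.

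PAX8 differed by -0.38 peaks (adjusted p = 1.0), LHX1 by -0.50 (adjusted p = 0.90), PAX2 by 2.88 (adjusted p = 0.69) and GATA3 by 0.12 (adjusted p = 1.0), RPTEC minus 786-O, by exact permutation tests with n = 8 per cell line. None of these 4 passed, and PAX8 changed sign when peaks that also overlap another gene were left out (0.38).

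The score of a peak has no stated scale, so peaks were ranked within their own list, where a score percentile of 100 is the highest. The highest peak of PAX8 lay at a median percentile of 94.9 in 786-O (84.8 to 98.4) and 95.3 in RPTEC (83.4 to 98.5). That of PAX2 lay at 90.2 (75.3 to 95.2) and 90.3 (76.8 to 93.8), and that of LHX1 at 92.9 (81.3 to 98.9) and 95.6 (76.5 to 99.3). The means, which were tested, were 94.4 and 94.0 for PAX8, 87.9 and 87.8 for PAX2, and 92.3 and 91.9 for LHX1, lower in RPTEC where the medians were higher. For these 3 genes, called in all 16 libraries, the means differed by -0.32, -0.05 and -0.38 percentile points, RPTEC minus 786-O, and 0 of 3 passed (adjusted p = 0.96, 1.0 and 0.97), beside 1.56% of the 4626 genes tested by the exact permutation test, 0.476% higher in RPTEC and 1.08% higher in 786-O. The highest EMX2 peak lay at 84.1 and 92.8 in RPTEC WT, 90.1 and 94.0 in SETD2KO-1, 78.7 and 84.3 in SETD2KO-2, and 94.1 and 91.8 in SETD2KO-1R. The single 786-O peak of EMX2 lay at percentile 12.02, far down its list. The highest WT1 peak also ranked low, between 10.9 and 51.3 over the 6 libraries of 786-O that had one, and with the 19249 highest peaks of each list 3 of 8 786-O libraries had one.

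**Figure D3:**
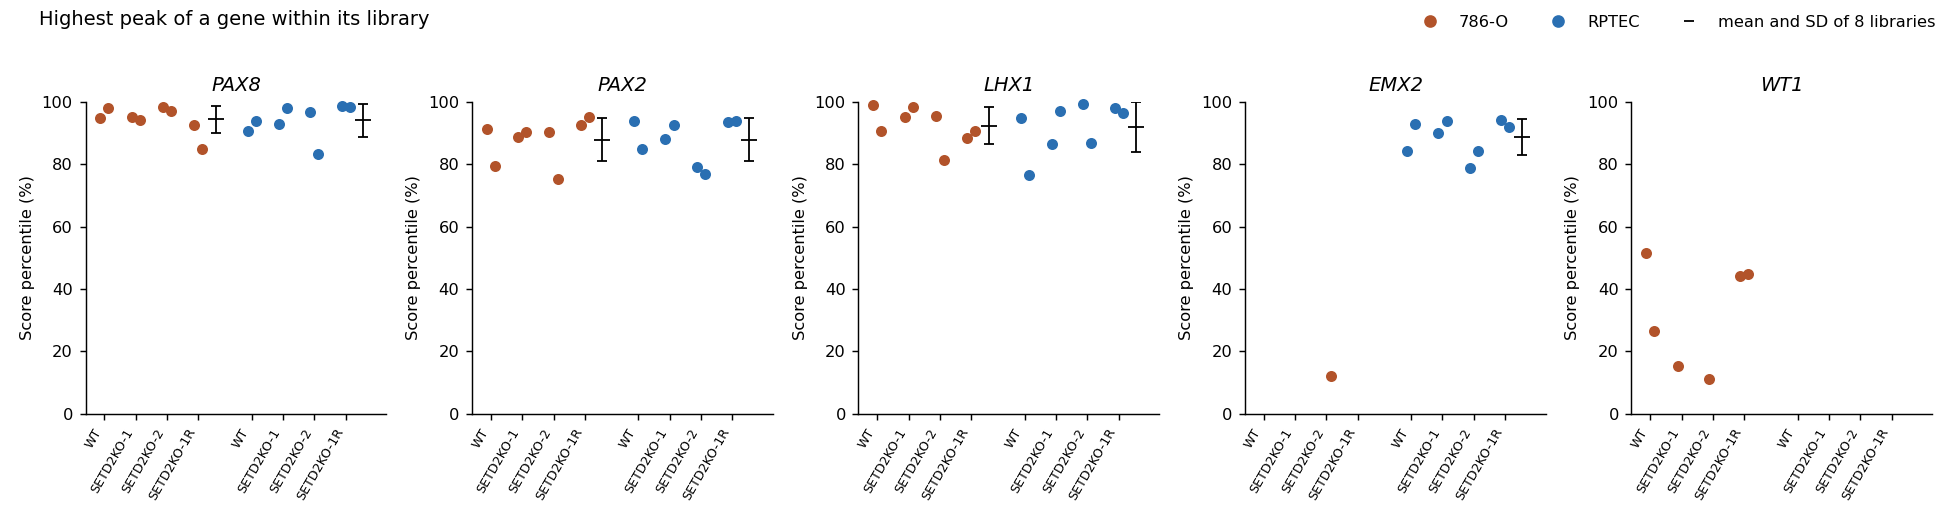
Score percentile within the library's own list (vertical axis, 100 is the highest score) of the highest peak of each gene, for both replicates of each line (horizontal axis), with the mean and SD where all 8 libraries had a peak. PAX8, PAX2 and LHX1 lie above 75 in every library, EMX2 between 78.7 and 94.1 in RPTEC, and WT1 between 10.9 and 51.3 in 786-O.

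Merging the peaks of all 16 libraries gave 99514 regions, 68 of which overlapped a member: 26 in PAX8, 31 in PAX2, 4 in LHX1, 2 in EMX2, 4 in WT1 and 1 in GATA3. Of these, 46 were called in both cell lines, 12 in 786-O alone, 10 in RPTEC alone, and 13 in a single library. In total 58 of the 68 had a call in 786-O and 56 in RPTEC, beside 77982 and 65906 of all 99514 regions. Whether these shares differ was not tested. Between the cell lines, 0 of 68 member regions passed, beside 0.152% of all regions with more calls in RPTEC and 0.175% with more in 786-O (Fisher's exact test, adjusted over all regions). At an unadjusted p under 0.05, 3 of 68 member regions and 3.97% of all regions passed.

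In PAX8, 3 regions were called in all 16 libraries. They lay 20.3, 51.5 and 60.6 kb from the start, the last of them (chr2:113217603-113219000) 2.3 kb before the annotated end of the gene. The region at 20.3 kb (chr2:113258165-113259068), which also overlaps the antisense gene PAX8-AS1, held the highest PAX8 peak in 5 of 8 786-O and 4 of 8 RPTEC libraries, at median percentiles of 93.9 and 93.2. Further regions called in at least 4 libraries of a cell line lay 0.31, 1.25, 25.6, 33.3, 35.6, 37.7, 42.9, 45.7, 46.8 and 55.3 kb from the start. The one at 45.7 kb was called in 8 of 8 RPTEC and 4 of 8 786-O libraries (exact p = 0.077, adjusted p = 1.0). No region was found between 1.25 and 18.4 kb. PAX8-AS1 overlaps the middle of PAX8, the lists carry no strand, and 15 of the 26 regions also overlapped it, so reads of the sense and antisense transcripts cannot be told apart there. In 786-O 49 of 107 PAX8 peaks overlapped PAX8-AS1, and in RPTEC 43 of 104.

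PAX2 overlaps no other annotated gene. Its peaks gathered at the 5′ side: the summits of 52 of 83 peaks in 786-O (62.7%) and 52 of 106 in RPTEC (49.1%) lay within 15 kb of the start, where PAX8 had 10.3% and 9.62%. One PAX2 region was called in all 16 libraries, 92.7 kb from the start and close to the 3′ end (chr10:100827326-100828861), at median percentiles of 78.8 in 786-O and 80.7 in RPTEC. It held the highest PAX2 peak in 3 of 8 786-O and 4 of 8 RPTEC libraries. The region at 3.08 kb was called in 8 of 8 786-O and 7 of 8 RPTEC libraries. Further regions called in at least 4 libraries of a cell line lay 0.17, 4.86, 5.82, 6.94, 8.74, 9.45, 11.7, 22.4, 23.7, 53.1, 78.9, 87.5 and 94.1 kb from the start. The region at 78.9 kb (chr10:100813936-100814684) was called in 5 of 8 RPTEC libraries and no 786-O library (exact p = 0.026, adjusted p = 0.81).

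EMX2 had 2 regions. The one 5.47 kb from the start, 1.3 kb before the annotated end (chr10:117547847-117548592), was called in 8 of 8 RPTEC and 1 of 8 786-O libraries (exact p = 0.0014, adjusted p = 0.17). It overlaps no other gene and held the highest EMX2 peak in every library that had one. The other (chr10:117542304-117543571) covers the start and also EMX2OS, the antisense gene. It was called in both WT and both SETD2KO-1 libraries of RPTEC and in none of the SETD2KO-2, SETD2KO-1R or 786-O libraries. With peaks that overlap another gene left out, the difference in EMX2 peak number was 0.88 (exact permutation test, adjusted p = 0.036).

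Of the 4 WT1 regions, the one called most often (chr11:32388906-32389386) lay 46.4 kb from the start, near the annotated 3′ end. It was called in 5 of 8 786-O and 0 of 8 RPTEC libraries (exact p = 0.026, adjusted p = 0.81), at a median percentile of 26.6. A region across the start was called in 3 786-O libraries, but in only 1 of them did the peak itself reach into WT1, and that peak also overlapped WT1-AS. LHX1 had 2 regions called in all 16 libraries. One runs over the low end of the gene into the neighbouring LHX1-DT (chr17:36934860-36938484) and held the highest LHX1 peak in every library. A peak that crosses this end has a single score for LHX1 and its flank, which cannot be told apart there. The other region called in all 16 lies at chr17:36942488-36943827, with median percentiles of 57.0 in 786-O and 62.1 in RPTEC. A further region (chr17:36940163-36941721) was called in 5 of 8 786-O and 4 of 8 RPTEC libraries. The GATA3 peak lay at chr10:8074136-8074542, near the 3′ end, at percentile 57.0.

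**Figure D4:**
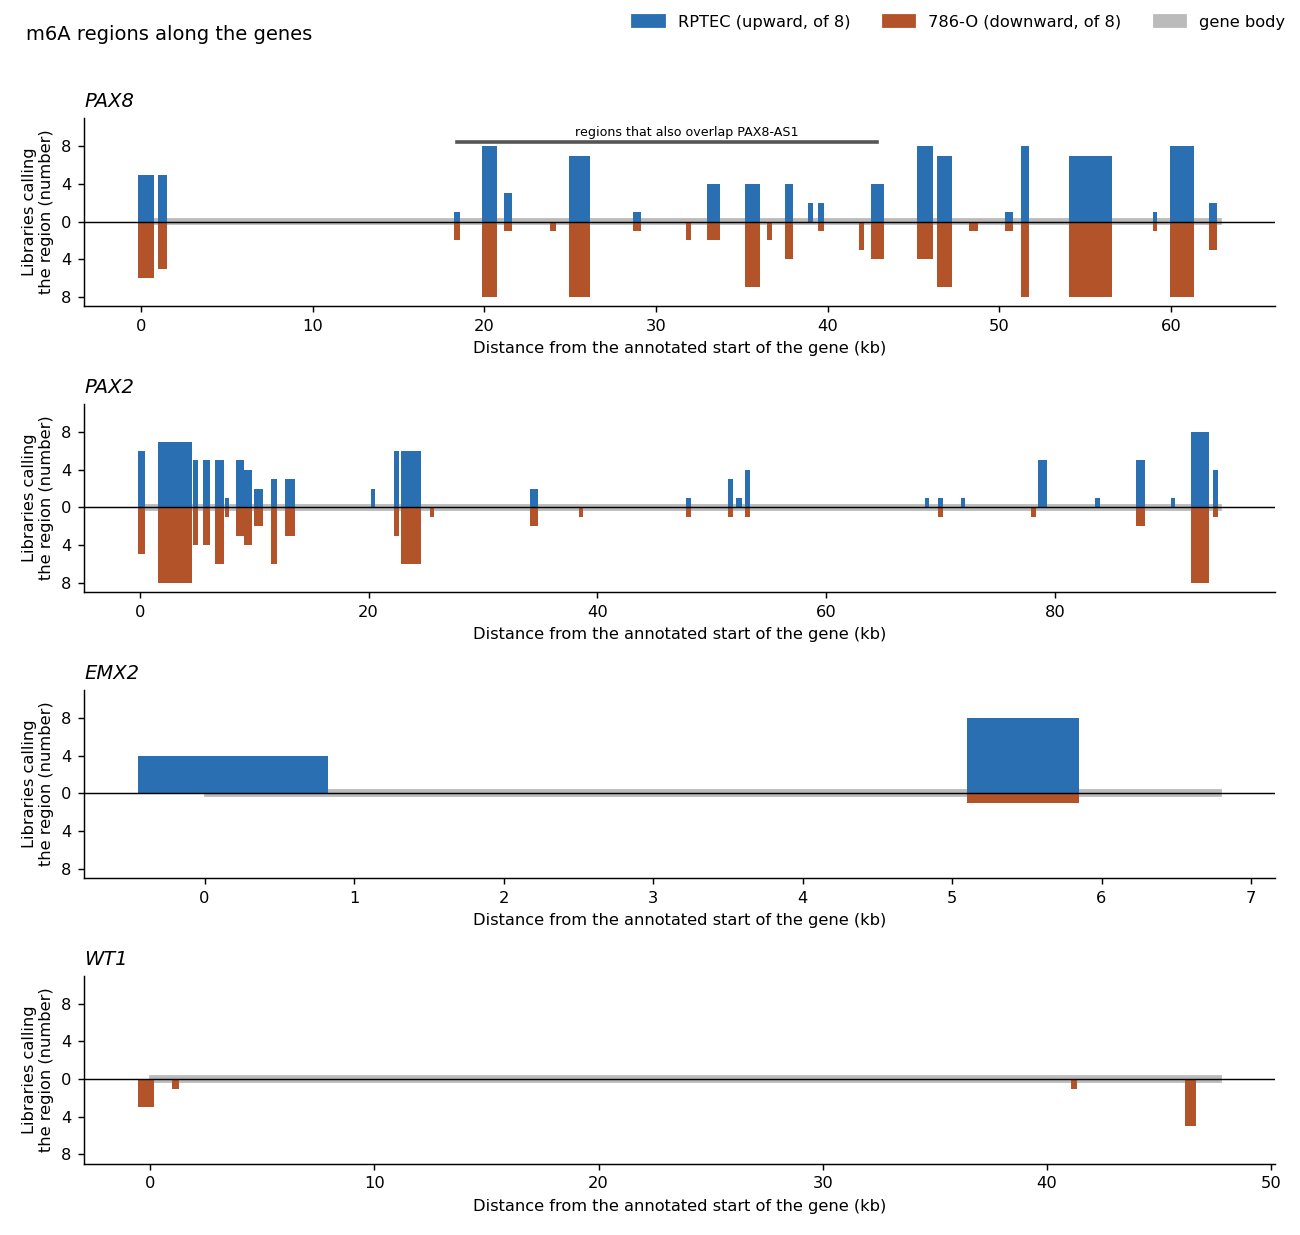
Number of libraries calling each merged region (vertical axis, RPTEC upward and 786-O downward, 8 libraries each) against the distance of the region from the annotated start (horizontal axis, kb) for PAX8, PAX2, EMX2 and WT1. Very short regions are drawn slightly wider than they are. The EMX2 region at 5.47 kb is called in 8 RPTEC libraries and 1 786-O library, and all WT1 regions are called in 786-O alone. At the WT1 start, 1 of the 3 peaks in the region overlapped the gene.

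Peaks reached past the annotated starts of PAX8, PAX2 and EMX2 in at least 4 libraries each, and the windows around these starts are shown. A WT1 peak did so in 1 786-O library, by 295 bases, and its window is not shown. PAX8 peaks extended 44 to 155 bases upstream of the start in 8 libraries (5 of 786-O and 3 of RPTEC), PAX2 peaks 15 to 131 bases in 11 (5 and 6), and EMX2 peaks 409 to 442 bases in 4 (0 and 4). Each window is the RefSeq sequence (GRCh38.p14) from 250 bases before to 30 bases after the start, on the strand of the gene. Capitals mark GGAC, the core of the common m6A motif, and GTCC, its reverse complement. The windows are chr2:113278892-113279171 on the minus strand for PAX8, and chr10:100735146-100735425 and chr10:117542496-117542775 on the plus strand for PAX2 and EMX2.
PAX8: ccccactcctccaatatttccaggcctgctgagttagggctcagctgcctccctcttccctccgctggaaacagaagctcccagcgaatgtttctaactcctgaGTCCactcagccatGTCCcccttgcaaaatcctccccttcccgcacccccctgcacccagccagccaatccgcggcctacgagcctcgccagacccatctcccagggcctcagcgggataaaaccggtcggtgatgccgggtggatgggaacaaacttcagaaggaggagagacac
PAX2: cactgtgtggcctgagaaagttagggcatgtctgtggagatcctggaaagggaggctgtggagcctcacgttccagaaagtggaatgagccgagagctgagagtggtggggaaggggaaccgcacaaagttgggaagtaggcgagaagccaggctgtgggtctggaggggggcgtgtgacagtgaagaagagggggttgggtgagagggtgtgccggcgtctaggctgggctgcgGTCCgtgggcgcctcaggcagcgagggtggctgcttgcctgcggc
EMX2: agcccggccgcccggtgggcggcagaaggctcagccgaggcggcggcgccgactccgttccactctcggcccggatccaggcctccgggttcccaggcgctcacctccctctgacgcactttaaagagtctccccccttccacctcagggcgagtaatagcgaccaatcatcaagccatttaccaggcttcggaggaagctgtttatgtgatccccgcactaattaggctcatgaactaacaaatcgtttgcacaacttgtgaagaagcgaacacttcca
None of the 3 windows held GGAC on the strand of the gene, which 63.3% of all 35116 promoter windows of this length did. The complement GTCC stood 2 times in PAX8, 1 time in PAX2 and not in EMX2, and 85.3% of all windows held the motif on either strand. These are matches of letters, and the motif may also lie in the parts of the peaks outside the windows.

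For SETD2KO against SETD2-expressing (WT and SETD2KO-1R) libraries, 4 against 4, the smallest p an exact test allows is 0.029. After adjustment over all genes, such a p passes only when a large share of all genes reaches it. The adjusted tests could therefore hardly pass for any gene, and a lack of passing genes does not show that SETD2 status has no effect. In 786-O, 0 of 5 tested members passed for calls or for peak number after adjustment, beside 0.0% of the 12430 genes tested. At an unadjusted p under 0.05, again 0 of 5 members passed. For calls this stands beside 0.708% of all genes (Fisher's exact test), 0.282% lower and 0.426% higher in SETD2KO, and for number beside 2.42% (exact permutation test), 0.901% lower and 1.52% higher. In RPTEC, 0 of 5 members passed either test with adjustment, beside 0.0% of 12185 genes, and 0 of 5 without it. The unadjusted background was 0.911% for calls, 0.394% lower and 0.517% higher in SETD2KO, and 2.42% for number, 1.41% lower and 1.01% higher. For calls of members the outcome was fixed by their totals. In 786-O, PAX8, PAX2 and LHX1 were called in all 8 libraries, WT1 in 6 and EMX2 in 1. The most uneven split of these gives p = 0.43 (Fisher's exact test, WT1). In RPTEC, PAX8, PAX2, LHX1 and EMX2 were called in all 8 and GATA3 in 1. The 0 of 5 for calls therefore says nothing about SETD2.

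No SETD2 difference of a member passed, and their values were as follows. PAX2 averaged 10.2 ± 6.7 peaks in RPTEC SETD2KO and 16.2 ± 4.86 in RPTEC SETD2-expressing libraries (SD, n = 4; difference -6.0, exact permutation p = 0.17). In 786-O it averaged 10.8 ± 4.99 and 10.0 ± 2.94. With a library left out the RPTEC difference of PAX2 ran from -8.42 (without WT replicate 2) to -3.92 (without SETD2KO-1 replicate 1). The lists of RPTEC SETD2KO-1 replicate 1 and SETD2KO-2 replicate 2, which held the fewest PAX2 peaks, were also among the 3 shortest, and with the 19249 highest peaks of each list the means were 7.75 ± 3.77 and 11.8 ± 2.87. PAX8 averaged 11.8 ± 4.86 and 14.2 ± 3.20 in RPTEC (difference -2.5, exact permutation p = 0.46, n = 4) and 14 ± 2.16 and 12.8 ± 2.87 in 786-O (difference 1.25, exact permutation p = 0.60, n = 4). With a library left out the RPTEC difference ran from -4.58 (without SETD2KO-1 replicate 2) to -0.92 (without SETD2KO-2 replicate 2), and the 786-O difference from 0 (without SETD2KO-1R replicate 2) to 2.33 (without WT replicate 2). With the 19249 highest peaks of each list PAX8 averaged 9.75 in RPTEC SETD2KO and 10.75 in RPTEC SETD2-expressing libraries. In 786-O it averaged 10.25 in each group. In 786-O WT1 was called in 4 of 4 SETD2-expressing and 2 of 4 SETD2KO libraries, with 1.5 ± 0.577 and 0.5 ± 0.577 peaks (exact permutation p = 0.17, n = 4). The highest WT1 peak lay at percentiles of 26.6 to 51.3 in SETD2-expressing and at 10.9 and 15.3 in SETD2KO libraries. In SETD2KO-1R replicate 2 the only WT1 peak, at percentile 44.8, crossed the start and also overlapped WT1-AS. It had 194 bp in WT1 and 295 bases past the start. EMX2 averaged 1.75 ± 0.957 and 1.5 ± 0.577 peaks in RPTEC SETD2KO and SETD2-expressing libraries. More than 1 peak was seen in the WT and SETD2KO-1 libraries alone. LHX1 differed by 0.50 in both cell lines. With a library left out its difference ran from 0.0 to 1.33 in 786-O and from 0.17 to 1.17 in RPTEC.

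The SETD2 difference in peak number was compared between the cell lines by permuting SETD2 labels within each, over 4900 arrangements. It passed for 0 of 6 members, with adjustment and without, beside 0.0% and 3.61% of the 13420 genes tested. The contrast was largest for PAX2 (-6.75 peaks, RPTEC minus 786-O, p = 0.22) and PAX8 (-3.75 peaks, p = 0.31), both by the exact permutation test. Over the alternatives it ran from -9.17 to -4.25 for PAX2 and from -5.83 to -0.25 for PAX8.

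By region, 0 of 58 member regions in 786-O and 0 of 56 in RPTEC passed after adjustment, beside 0.0% of regions in each cell line. These tests were also 4 against 4, so the same limit on adjusted tests holds. At an unadjusted p under 0.05, 0 of 58 passed in 786-O, beside 0.628% of all regions, and 1 of 56 in RPTEC, beside 0.496%. The one region lies 9.45 kb from the start of PAX2 (chr10:100744532-100745157). It was called in all 4 SETD2-expressing RPTEC libraries, at percentiles of 35.3 to 74.7, and in none of the 4 SETD2KO libraries (Fisher's exact test, p = 0.029, adjusted p = 1.0). In 786-O it was called in 2 of 4 libraries of each status.

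In 4 wider lists of kidney transcription factors, 3 of 33 tested genes (9.09%) differed in peak number between RPTEC and 786-O, beside 5.36% of all genes. None of 12 nephron progenitor factors passed in either direction, and 9 had a peak in at least 1 library. Among 12 proximal tubule factors, 10 had a peak and 1 passed, PPARA, the receptor that drives fatty acid oxidation, with 7.88 ± 1.64 peaks in 786-O and 3.62 ± 0.916 in RPTEC (SD, n = 8; exact permutation test, adjusted p = 0.0083). Among 14 distal tubule and collecting duct factors, 10 had a peak and 1 passed, IRX1, a homeobox factor of the intermediate tubule. IRX1 had no peak in the 8 786-O libraries and 1.5 ± 0.535 in RPTEC, where 8 of 8 libraries called it (SD, n = 8; exact permutation test, adjusted p = 0.0083). Of 6 podocyte factors, 4 had a peak and 1 passed, ZHX2, a zinc finger and homeobox repressor, with 20.5 ± 5.29 peaks in 786-O and 9.0 ± 3.12 in RPTEC (SD, n = 8; exact permutation test, adjusted p = 0.0083).

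Of 10 paralogues of the members, 6 had a peak and 1 passed, GATA1, the erythroid GATA factor, with 1.00 ± 0.535 peaks in 786-O, where 7 of 8 libraries called it, and none in RPTEC (SD, n = 8; exact permutation test, adjusted p = 0.032). HNF4G, the closest relative of HNF4A, had a peak in 6 of 8 786-O and 2 of 8 RPTEC libraries (adjusted p = 0.15 for number by the exact permutation test). GATA2 was called in 8 of 8 and 7 of 8 libraries and GATA6 in 8 of 8 of both, whereas PAX5, LHX5, GATA4 and GATA5 had no peak in any library. All paralogues named here other than GATA1 were chosen after their values were seen.

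The genes whose covered length was most like that of each member were found by Pearson's r of log2(bp + 1) over the 16 libraries. For EMX2 they were PDCD1LG2 (r = 0.99), SMAGP (0.92) and TFCP2 (0.90), of which PDCD1LG2 was called in 8 RPTEC libraries and 1 786-O library, TFCP2 in 8 and 0, and SMAGP in 8 and 8. For WT1 they were CEBPA, ASIC3 and RAB1A (r = 1.00, 0.99 and 0.99), each called in 6 786-O libraries and no RPTEC library. For PAX8 they were NUMA1 (r = 0.97), KIF1C (0.95) and ZNF324 (0.95), for PAX2 SPHK1 (0.90), TEAD3 (0.90) and ARPIN (0.88), and for LHX1 NIBAN2 (0.88), CHMP3 (0.88) and MRTFA (0.86). These are the highest of 13420 correlations each, and the libraries share list length and cell line.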

How the data were processed

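Total RNA with an E. coli RNA spike-in was fragmented and immunoprecipitated with an m6A antibody, and 16 IP libraries were analysed, with 2 per line. The authors aligned reads with STAR, quantified them with HTSeq, normalised by the spike-in and called peaks per library over Input with MACS2 (hg38, per the submitters' processing notes). The deposited value is a whole-number score per peak whose scale is not stated, taken here for ranks inside each list alone. The deposited summit offsets were also used, and the fold, p and q columns are 0 throughout and were not. The files hold no counts, so the depth of each library and the precision it gives cannot be stated. The 16 Input samples were not analysed here.

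Gene bodies came from RefSeq GRCh38.p14, without exons. Calls were compared by Fisher's exact test, numbers and percentiles by exact permutation tests, two-sided, with Benjamini-Hochberg adjustment over all protein-coding genes with a peak in the libraries compared, or over all regions, and a threshold of 0.05 (Python 3.11.15, NumPy, pandas, SciPy). The call and number tests between cell lines were checked on simulated peaks with Poisson spread and large planted differences. Each recovered 97.0% of 200 planted genes. The test of the SETD2 difference between cell lines recovered 68.5% at an unadjusted p under 0.05. The SETD2 tests within a cell line, the percentile tests and the region tests were not simulated. Libraries with the same replicate number were not treated as pairs (correlation of deviations -0.076 to 0.18 in 786-O and -0.18 to 0.18 in RPTEC). The labels do not say that replicates came from separate cultures, so p-values measure the spread between these libraries, which may be technical. The alternatives were the upper 50% of each list, the 19249 highest peaks of each list, peaks of at least 288 bp, an overlap of 50 bp, the summit inside, peaks in no other gene, a replicate block, lines as units, clones alone, WT alone, peaks within 100 bp merged and each library left out. The genes named beside the members were those past the threshold for number in each list of transcription factors, up to 3 per direction, and the 3 most alike per member, and the regions named were those called in at least 4 of 8 libraries of a cell line. Cell type markers, the paralogues other than GATA1, the WT1 region at the start and the single GATA3 region were named outside this rule, after their values were seen. The members and gene lists were chosen with earlier results of these data known.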

Additional observations from a re-analysis of the deposited data

Results flagged for a closer look

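Within the 4 libraries of 1 SETD2 status in 1 cell line, a library stood apart by Dixon's test in 3 of 17 groups with any spread. Chance gives about 1 in 20 for continuous values, but not for the EMX2 and GATA3 counts of 0, 0, 0 and 1, where a lone peak always meets the criterion, so those 2 say only that 1 library had a peak. In RPTEC SETD2-expressing libraries, WT replicate 2 had 9 PAX2 peaks beside 18 to 19 in the other 3, and its list of 23126 peaks was the shortest of the 4. With the 19249 highest peaks of each list it was still the lowest, with 8 PAX2 peaks beside 12, 12 and 15. In 786-O SETD2KO libraries, SETD2KO-2 replicate 2 had the 1 EMX2 peak, at percentile 12.02 of its list. In RPTEC SETD2KO libraries, SETD2KO-2 replicate 1 had the 1 GATA3 peak, at percentile 57.0.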

How the results depend on the processing

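The count of members with a different call in RPTEC against 786-O was 0 and became 1 (EMX2) in the upper 50% of each list and with the 19249 highest peaks of each list, and ranged from 0 to 1 with a library left out. The count with a different peak number was 1 and became 0 with lines as units, and ranged from 1 to 2 with a library left out. The count of member regions with a different call was 0 and ranged from 0 to 1 with a library left out (1, the EMX2 region near the 3′ end, without 786-O SETD2KO-2 replicate 2). All 8 other counts were 0 under every alternative run. For the SETD2 counts within a cell line, the limit of adjusted tests on so few libraries holds there too. The replicate block changed no call: the EMX2 number kept a difference of 1.5 (exact permutation test, adjusted p = 0.037), and the count of members with a different number stayed 1. The pairing rests on the number alone, and pairs deviated together in neither cell line.

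Directions that turned belonged to values that had not passed. PAX8 and LHX1 numbers in RPTEC minus 786-O became 0.38 (PAX8, peaks in no other gene, and its percentile 1.69) and 0.12 (LHX1, 19249 highest peaks). With the upper 50%, the RPTEC SETD2 difference in number was -0.25 for LHX1 and for EMX2. With SETD2KO-1 alone the 786-O difference of PAX8 was -0.25, with SETD2KO-2 alone that of PAX2 in 786-O was -3.0 and that of EMX2 in RPTEC -0.50. Against WT alone PAX8 was -0.50 in 786-O and 0.25 in RPTEC, and EMX2 -0.25 in RPTEC. With a library left out, the ranges were -1.09 to 0.48 (PAX8 number), -1.69 to 1.20, -1.84 to 1.53 and -1.95 to 1.83 (PAX8, PAX2 and LHX1 percentile), -0.67 to 3.0 (PAX2, SETD2 difference in 786-O) and -0.17 to 0.50 (EMX2, that in RPTEC). The cause of these changes was not tested. Since lists differ in length and hold no counts, a member missing from a list may lie just under the threshold.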
